A study of Homo sapiens with 34 samples.

Results

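The comparison asked how the response to etoposide of RAMOS, a mature B cell line, differed from that of NALM6 and 697, a pair of pre-B cell lines. It used 17 of the 34 RNA-seq libraries of the series, which covers 6 blood cancer cell lines. For every gene the log2 fold change of etoposide over control was taken in each line. The mean of the NALM6 and 697 values was then subtracted from the RAMOS value, and the result is called the difference below. A positive difference means that the gene rose more, or fell less, in RAMOS. RAMOS had 3 control and 3 etoposide libraries, NALM6 had 3 and 3, and 697 had 3 controls and 2 etoposide libraries. Controls were untreated and treated cells received etoposide at 10 µM for 4 hours. No genotype or edit is given for any line in the labels. Each stage of B cell development is represented by 1 or 2 lines, so a difference between stages and a difference between these lines cannot be told apart.

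Etoposide holds type II topoisomerases in place after they have opened both DNA strands, which turns them into sources of breaks. Cells answer such breaks through the kinases ATM and ATR, the transcription factor p53 with its targets that stop the cell cycle or start apoptosis, and NF-κB. Pre-B cells cut their own antigen receptor genes with the RAG recombinase, whereas mature B cells signal through a surface B cell receptor. RAMOS comes from a Burkitt lymphoma and NALM6 and 697 come from B cell precursor leukaemias.

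The libraries held 8.18 M to 34.2 M counts assigned to genes (M for mega). Levels are given as CPM, a count scaled to a fixed library total, so they are relative to the other RNA of the library, and in bulk RNA fewer cells with a transcript and less of it per cell cannot be told apart. Marker sums went with the stage of each line, though single markers did not all do so. Summed pre-B markers stood at 4864 CPM in NALM6 controls, 4092 CPM in 697 controls and 562 CPM in RAMOS controls, and summed mature and germinal centre B markers stood at 197, 527 and 2461 CPM. Of the pre-B markers, MME stood at 521 CPM in RAMOS controls, most of their sum, and at 97.5 CPM in 697 controls. CD34 was hardly read in 697. GCET2, among the mature markers, was at 169 CPM in 697 controls and 143 CPM in RAMOS controls. The other mature markers were highest in RAMOS controls, where MEF2B, FCER2 and CR2 reached only 0.235, 2.60 and 4.10 CPM. Markers of T, NK, myeloid and erythroid cells summed to at most 86.1 CPM in any group, and the haemoglobin genes HBB, HBA1, HBA2 and HBG1 were at 0. The file names place the controls of both pre-B lines in 1 sequencing pool and their etoposide libraries in another, while all RAMOS libraries came from a pool of their own. Pool and treatment therefore cannot be told apart in the pre-B lines.

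RAMOS control replicate 2 stood apart in a few genes of other lineages. It held RAG1 at 5.89 CPM, DNTT at 3.66 CPM, CD3D at 1.96 CPM and CD3E at 2.22 CPM, where the other RAMOS controls held at most 0.822, 0.365, 0.0457 and 0.457 CPM. Results that rest on it are given with and without it. Without it the count of genes that differed was 8505, against 8977 with it.

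The etoposide response of RAMOS differed in size or direction from that of the pre-B lines for most tested genes. Of 14706 genes tested, 8977 (61%) had a difference at an adjusted p under 0.05 (edgeR quasi-likelihood test with Benjamini-Hochberg adjustment), 4271 of them higher in RAMOS (29%) and 4706 lower (32%). A difference of at least 2-fold was called for 1002 genes above and 2616 below. Against NALM6 on its own 59.1% of genes were called, 28% above and 31.1% below. Against 697 on its own 57.2% were called, 28.1% above and 29.2% below. Against both lines in the same direction, 3180 genes were called above and 3236 below. For 860 genes (5.85%) RAMOS rose while both pre-B lines fell, and for 624 genes (4.24%) RAMOS fell while both rose. Within a line, etoposide changed 56.3% of tested genes in RAMOS, 74.6% in NALM6 and 73.9% in 697. Calls in the same direction in all 3 lines were made for 1768 rising and 1995 falling genes.

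The pre-B lines also differed from each other, with 5650 genes called (38.4%), 20.3% higher in NALM6 and 18.1% higher in 697. Across all tested genes, the Pearson correlation of the effects was 0.75 between NALM6 and 697 and 0.31 between RAMOS and the pre-B mean, as a description across genes, which are not independent replicates. The median absolute log2 effect was 0.41 in RAMOS, 0.68 in NALM6 and 0.69 in 697. The median difference over all genes was −0.13, and −0.25 with upper-quartile scaling in place of the usual scaling factors. For 659 of the 4706 lower genes the RAMOS means stayed under 1 CPM in both groups, so their RAMOS effect rests on few reads. Among the 3757 genes that averaged under 2 in log2 CPM, 97 were above and 1202 below, with a median difference of −1.20. Of these, 1986 rose and 210 fell in NALM6, 2018 and 234 in 697, and 614 and 381 in RAMOS. Genes with any read numbered 13917 to 14978 in NALM6 controls and 15908 to 16132 in treated NALM6 libraries. In 697 they numbered 14355 to 14738 and 16408 to 17097, and in RAMOS 14114 to 15663 and 15078 to 15785. The part of pool in this was not tested. In 10497 genes the control or the etoposide mean reached 1 CPM in each line. Of these, 4155 were above and 3614 below, with a median difference of 0.05. The balance turned when the scaling factors and the test were recomputed on genes so restricted, with 3789 above, 4082 below and a median of −0.03. By at least 2-fold, 895 of the 10497 genes were above and 1548 below. Either group sufficed, so a gene hardly read in pre-B controls could pass through its rise. These counts therefore cannot show how far the surplus of large negative differences rests on few reads.

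**Figure D1:**
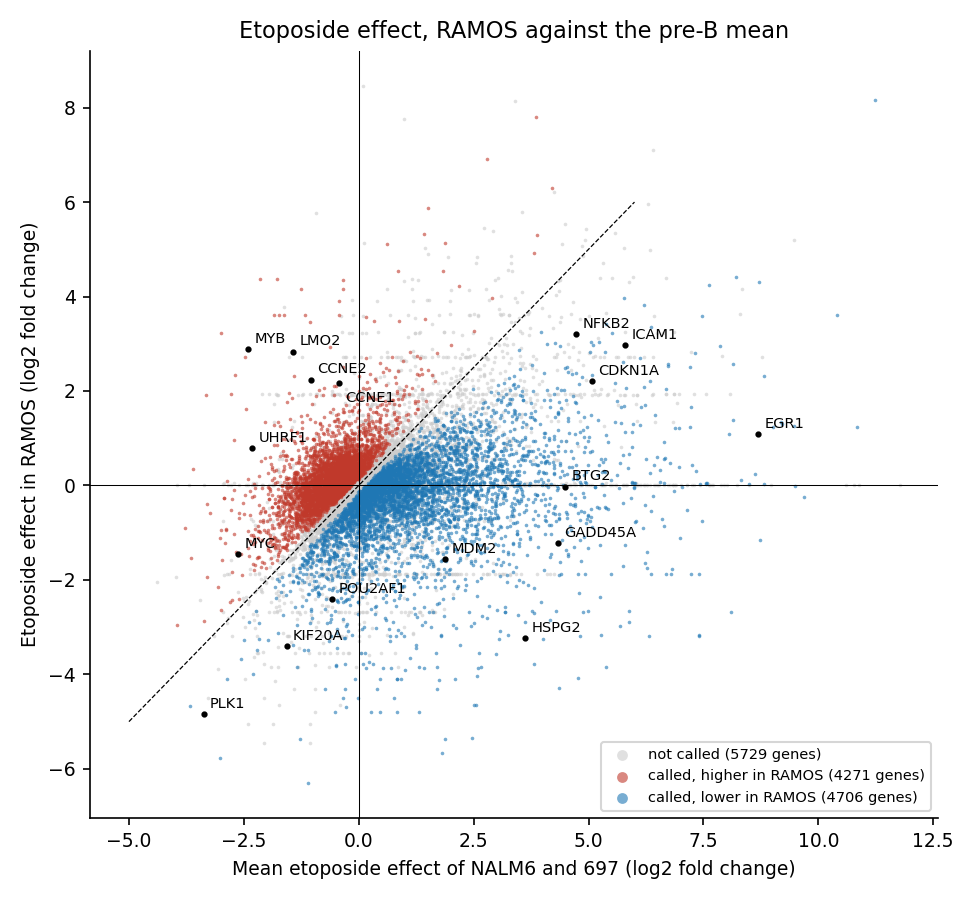
Each point is 1 of the 14706 tested genes, with the mean log2 etoposide effect of NALM6 and 697 on the horizontal axis and the log2 effect in RAMOS on the vertical axis. The dashed line marks equal effects; 4271 genes called above it are red, 4706 called below it are blue and 5729 not called are grey, and the rows of points at fixed heights are genes with few reads in RAMOS.

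The p53 targets rose in both pre-B lines and were divided in RAMOS, where their median log2 effect was 0.04. Of 39 tested members, 37 rose in NALM6 and 38 in 697, against 14 that rose and 10 that fell in RAMOS. The background shares of rising genes were 39.7% in NALM6, 38.1% in 697 and 28.3% in RAMOS. The difference was below 0 for 32 members, above for 2, and not called for 5. The median difference was −2.74, against −0.13 over all tested genes, and −2.67 when the 5 members with a group of at most 3 reads were held at that floor of 3 reads.

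CDKN1A encodes the cyclin-dependent kinase inhibitor p21. In RAMOS it went from 1.45, 1.79 and 1.23 CPM in controls to 6.89, 6.39 and 7.65 CPM in etoposide libraries. In NALM6 it went from 155, 164 and 154 CPM to 6511, 6115 and 6406 CPM, and in 697 from 164, 161 and 170 CPM to 4726 and 4576 CPM. The groups did not overlap in any line, but the highest treated RAMOS library lay below every pre-B control. The difference was −2.87 ± 0.199 on the log2 scale (SE, edgeR adjusted p = 1.67e-18). MDM2, the ubiquitin ligase gene that limits p53, went in opposite directions. It fell in RAMOS, from 428, 428 and 436 CPM to 146, 139 and 152 CPM. It rose in NALM6, from 197, 200 and 213 CPM to 1211, 1390 and 1314 CPM, and in 697, from 966, 994 and 965 CPM to 2227 and 1879 CPM. The difference was −3.44 ± 0.0687 (edgeR adjusted p = 8.92e-41).

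GADD45A, a growth arrest gene, followed the same opposite pattern. RAMOS controls held 29.3, 29 and 27.7 CPM and treated RAMOS libraries 12.2, 11.1 and 13.2 CPM, whereas NALM6 rose from 21.7 to 26.4 CPM to between 415 and 424 CPM, and 697 from 19.1 to 20.2 CPM to 454 and 473 CPM. Its difference was −5.57 ± 0.0906. BTG2, an antiproliferative gene, was already high in RAMOS controls, at 548, 566 and 573 CPM, and stood at 560, 535 and 563 CPM after etoposide, so the groups overlapped. In NALM6 it rose from 49.8 to 50 CPM to between 785 and 803 CPM, and in 697 from 21.3 to 26.8 CPM to 693 and 796 CPM. The difference of −4.51 ± 0.0683 (edgeR adjusted p = 7.39e-48) was therefore the pre-B rise set against a RAMOS effect of −0.03. FDXR, which encodes ferredoxin reductase, showed the same form, with a RAMOS range of 10.7 to 11.8 CPM before and 10.3 to 14.3 CPM after. NALM6 went from 24.7 to 29.2 CPM to between 365 and 399 CPM, and 697 from 24.5 to 29.3 CPM to 468 and 497 CPM.

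The DNA repair members DDB2 and XPC, which recognise ultraviolet lesions, differed by −2.66 ± 0.143 and −3.42 ± 0.0724. The apoptosis members BBC3 (PUMA) and BAX differed by −3.82 ± 0.252 and −1.87 ± 0.0702. BBC3 rose in RAMOS too, from 1.81, 1.57 and 1 CPM to 3.53, 3.27 and 4.03 CPM, but reached 296 to 309 CPM in NALM6 and 276 and 329 CPM in 697. GDF15, EDA2R and PLK2 had no reads in any RAMOS library. GDF15, a stress cytokine gene, rose at least 184-fold in NALM6 and at least 345-fold in 697, against a floor of 3 reads over the control group.

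A few members did not follow the list. FAS, a death receptor gene, rose in every line and more in RAMOS, from 4.34, 6.02 and 5.34 CPM to 163, 163 and 169 CPM. NALM6 went from 11, 11.1 and 9.81 CPM to 127, 148 and 142 CPM, and 697 from 5.15, 5.57 and 5.64 CPM to 93.9 and 70.3 CPM. The treated RAMOS libraries lay above every treated pre-B library, with a difference of 1.11 ± 0.135 (edgeR adjusted p = 1.51e-09). DRAM1, an autophagy gene, had a log2 effect of 3.67 in RAMOS, 3.92 in NALM6 and 3.51 in 697 and was not called (difference −0.05 ± 0.496), though its RAMOS level stayed at or below 1.26 CPM. These members were singled out after their values were seen.

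**Figure D2:**
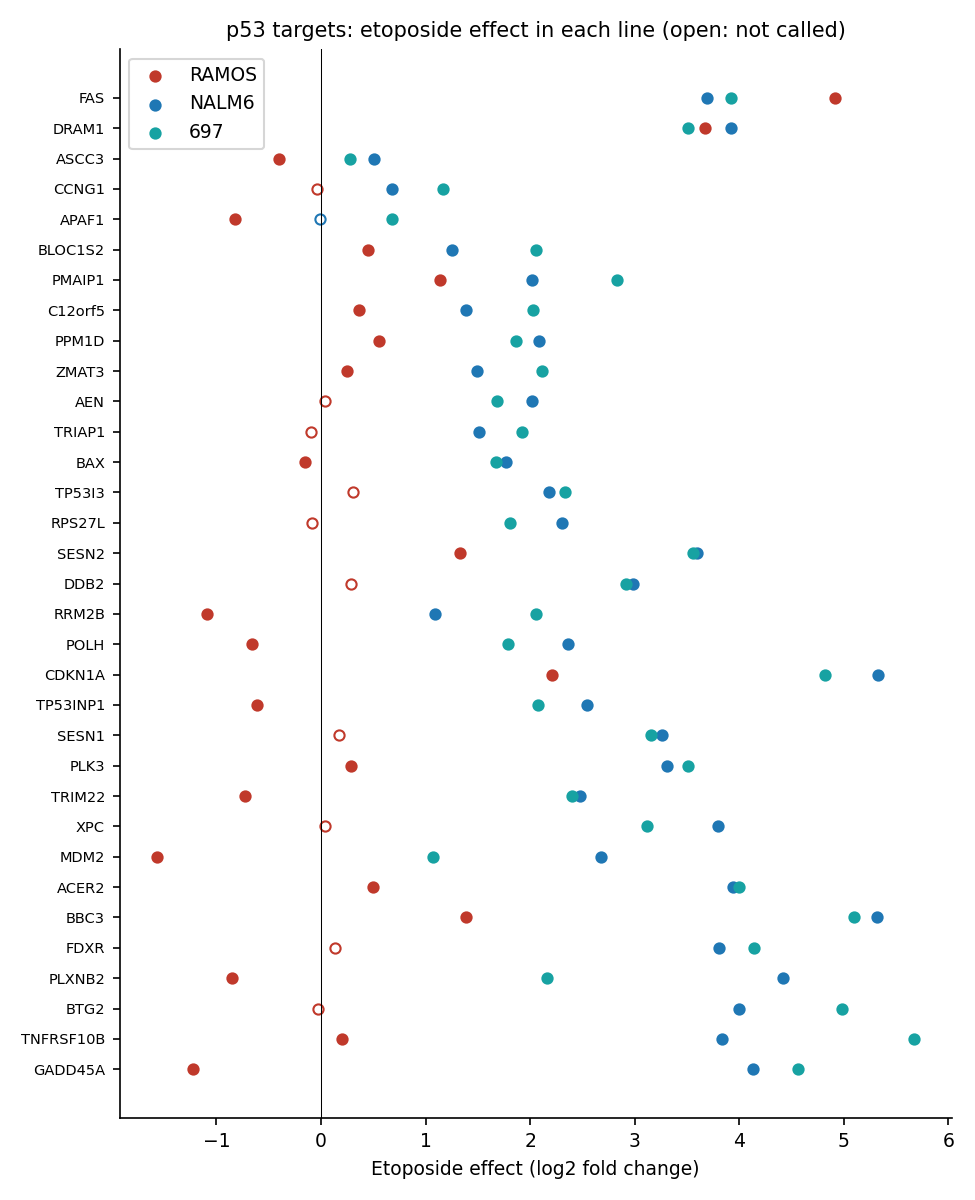
Log2 etoposide effect (horizontal axis) of 33 of the 34 p53 targets with more than 3 reads in every group, one gene per row, ordered by the difference, in RAMOS (red), NALM6 (blue) and 697 (teal); open circles were not called. RAMOS lies left of both pre-B lines for all genes shown but FAS and DRAM1 at the top.

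The G1/S genes, which license and copy DNA at the start of S phase and include many E2F targets, moved the other way. Of 40 tested members, 38 had a difference above 0, none below, and 2 were not called, beside 29% above among all genes. The median difference was 1.37. In RAMOS 35 members rose and 4 fell, in NALM6 9 rose and 27 fell, and in 697 3 rose and 37 fell. Over all tested genes 28.3% rose and 28% fell in RAMOS, 39.7% and 34.9% in NALM6, and 38.1% and 35.8% in 697. The pre-B lines were not alike either, since 32 members were called higher in NALM6 than in 697, beside 20.3% of all tested genes.

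The largest differences belonged to the cyclin E genes, whose products activate CDK2 at the entry to S phase, and to UHRF1, which maintains DNA methylation at the fork. CCNE1 went from 43.6, 38.8 and 42.9 CPM to 183, 189 and 190 CPM in RAMOS. It went from 19.5, 16.4 and 18.2 CPM to 17.9, 15.4 and 15.8 CPM in NALM6, where the groups overlapped, and from 16.7, 15.2 and 19.8 CPM to 10.1 and 10.6 CPM in 697. Its difference was 2.61 ± 0.101 (edgeR adjusted p = 4.46e-29). CCNE2 rose in RAMOS from 70.4, 69 and 70.5 CPM to 338, 332 and 322 CPM. NALM6 fell from 83.8, 80.8 and 77.2 CPM to 35, 39.5 and 38.3 CPM and in 697 from 126, 126 and 119 CPM to 65.7 and 57.8 CPM. No group overlapped with its control, and the difference was 3.29 ± 0.0721 (edgeR adjusted p = 3.00e-40). UHRF1 rose in RAMOS from between 182 and 201 CPM to between 318 and 339 CPM. NALM6 fell from between 987 and 1131 CPM to between 258 and 281 CPM, and in 697 from between 668 and 697 CPM to 108 and 110 CPM, a difference of 3.10 ± 0.0654.

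The mismatch repair gene MSH6 and the flap endonuclease gene FEN1 differed by 2.17 ± 0.0595 and 2.04 ± 0.0587, and both rose in RAMOS and fell in NALM6 and 697. MCM6, a subunit of the replicative helicase, rose in RAMOS from 377, 384 and 404 CPM to 540, 574 and 534 CPM. NALM6 libraries went down from 505, 545 and 534 CPM to 252, 251 and 250 CPM, and in 697 from 667, 680 and 682 CPM to 223 and 230 CPM. The difference was 1.83 ± 0.0583. PCNA, the sliding clamp gene, rose in all 3 lines, by 1.03 in RAMOS, 0.35 in NALM6 and 0.67 in 697 on the log2 scale. The members without a called difference were TYMS, the thymidylate synthase gene, at 0.10 ± 0.0763, and RBL1, the gene of the pocket protein p107, at 0.08 ± 0.0818.

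**Figure D3:**
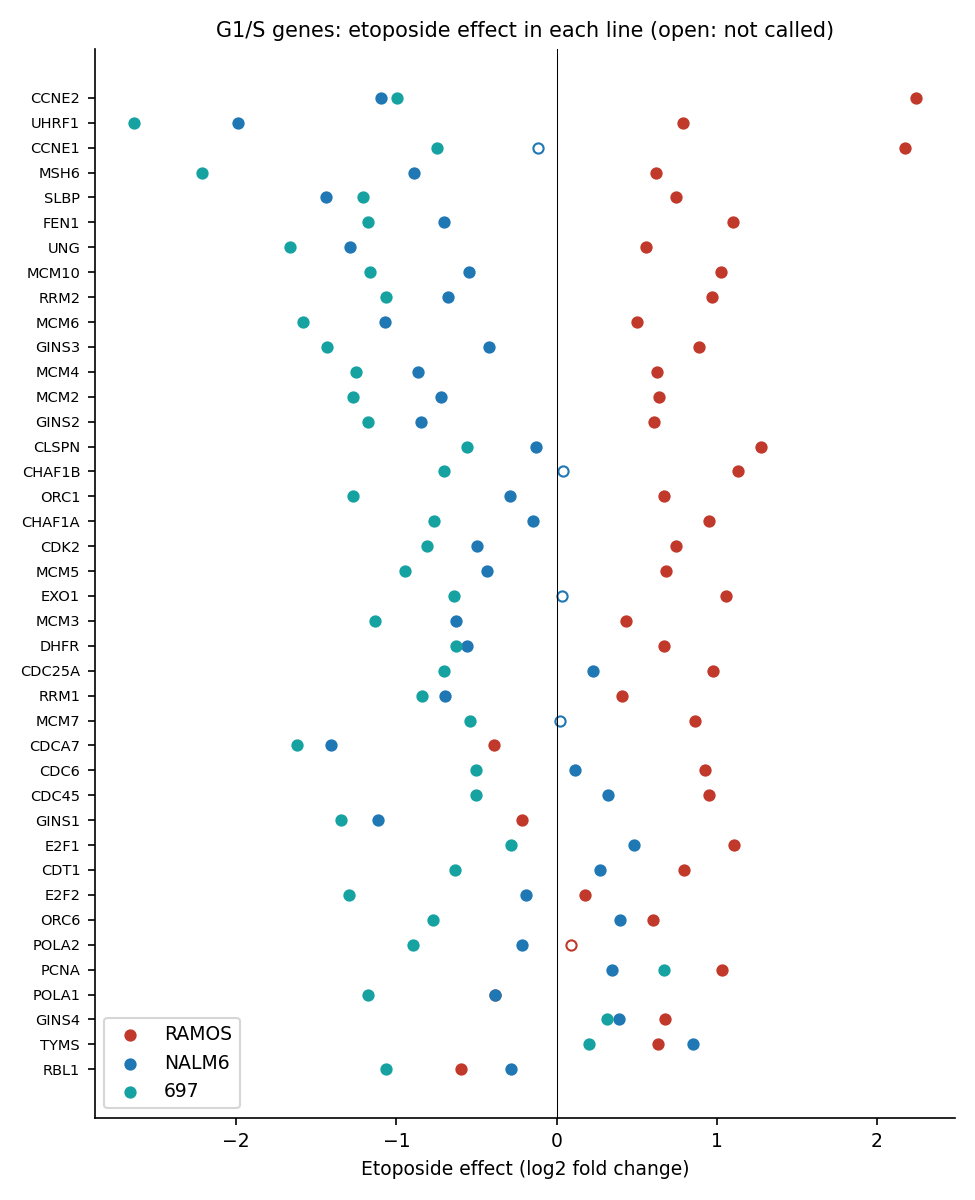
Log2 etoposide effect (horizontal axis) of the 40 G1/S genes, one gene per row, ordered by the difference, in RAMOS (red), NALM6 (blue) and 697 (teal); open circles were not called. RAMOS lies right of both pre-B lines in most rows, and 697 lies left of NALM6 for most genes.

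Promoters are shown for a G1/S gene that went opposite ways in the lines (MCM6) and one without a called difference (RBL1), for a p53 target (FDXR), and for a pair of G2/M genes that differed in opposite directions (PLK1 and CDK1). The promoter of TNFAIP3, an NF-κB target with a smaller rise in RAMOS, stands beside that of IRF1, with a larger one. Each is the 250 bases before the start, read 5′ to 3′ on the gene's own strand, from RefSeq on GRCh38.p14. Capitals mark the motif searched on both strands, where overlapping matches were kept. The letters were TTTGGCGC or TTTCGCGC for E2F and TTTGAA or TTCGAA for the cell cycle homology region (CHR), and the NF-κB motif and the p53 decamer were the usual consensus forms. A match is a description of these letters and not a binding site. In MCM6, at chr2:135876444-135876693 (minus strand), and RBL1, at chr20:37095998-37096247 (minus strand), capitals mark E2F matches. In FDXR, at chr17:74872995-74873244 (minus strand), they mark a p53 decamer. In PLK1, at chr16:23678639-23678888 (plus strand), and CDK1, at chr10:60778081-60778330 (plus strand), they mark a CHR match. In TNFAIP3, at chr6:137867009-137867258 (plus strand), and IRF1, at chr5:132490774-132491023 (minus strand), they mark NF-κB matches.
MCM6: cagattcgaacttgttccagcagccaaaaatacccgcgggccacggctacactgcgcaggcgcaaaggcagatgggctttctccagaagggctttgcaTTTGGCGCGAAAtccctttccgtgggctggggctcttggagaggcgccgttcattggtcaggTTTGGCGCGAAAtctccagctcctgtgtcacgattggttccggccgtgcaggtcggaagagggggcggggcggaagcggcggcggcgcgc
RBL1: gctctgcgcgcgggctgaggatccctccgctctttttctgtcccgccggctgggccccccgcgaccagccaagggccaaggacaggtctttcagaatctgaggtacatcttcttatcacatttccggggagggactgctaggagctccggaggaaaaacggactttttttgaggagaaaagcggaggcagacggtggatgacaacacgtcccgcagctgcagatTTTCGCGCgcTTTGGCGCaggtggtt
FDXR: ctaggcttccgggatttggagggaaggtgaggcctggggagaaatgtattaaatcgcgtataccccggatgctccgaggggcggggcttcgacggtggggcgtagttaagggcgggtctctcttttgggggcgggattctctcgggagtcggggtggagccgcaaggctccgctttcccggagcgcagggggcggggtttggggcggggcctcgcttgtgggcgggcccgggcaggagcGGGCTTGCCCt
PLK1: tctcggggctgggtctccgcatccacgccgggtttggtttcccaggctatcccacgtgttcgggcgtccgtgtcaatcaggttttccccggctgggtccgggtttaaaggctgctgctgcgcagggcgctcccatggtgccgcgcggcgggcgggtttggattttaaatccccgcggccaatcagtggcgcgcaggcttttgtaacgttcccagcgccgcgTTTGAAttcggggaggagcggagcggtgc
CDK1: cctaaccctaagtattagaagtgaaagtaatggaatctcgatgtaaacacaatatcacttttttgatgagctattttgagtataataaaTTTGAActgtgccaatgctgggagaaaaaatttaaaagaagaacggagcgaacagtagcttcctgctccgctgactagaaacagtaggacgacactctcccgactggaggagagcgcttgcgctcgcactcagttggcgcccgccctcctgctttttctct
TNFAIP3: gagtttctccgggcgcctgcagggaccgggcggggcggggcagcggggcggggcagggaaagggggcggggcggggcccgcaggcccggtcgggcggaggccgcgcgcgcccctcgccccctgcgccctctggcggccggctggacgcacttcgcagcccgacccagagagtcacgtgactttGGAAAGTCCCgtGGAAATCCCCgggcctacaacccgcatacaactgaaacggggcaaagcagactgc
IRF1: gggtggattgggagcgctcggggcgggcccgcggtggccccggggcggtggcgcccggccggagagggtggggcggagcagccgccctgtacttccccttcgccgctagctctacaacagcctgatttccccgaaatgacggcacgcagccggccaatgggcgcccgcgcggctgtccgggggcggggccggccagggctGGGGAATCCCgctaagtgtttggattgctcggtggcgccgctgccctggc

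Counted over windows that also took in the 50 bases after the start, an E2F match was found in 13 of the 34 G1/S promoters at hand (38.2%). It was found in 2% of the 11081 promoters of all tested genes and in 1.18% of all 27305 promoters. RBL1 held 2 matches and MCM6 4, in overlapping pairs on both strands, so a match alone did not go with the difference in this pair. Among the 715 promoters of genes that rose in RAMOS and fell in both pre-B lines, 27 held an E2F match (3.78%). A CHR match was found in 18 of 29 G2/M promoters (62.1%), beside 11.6% of tested and 16.6% of all promoters. An NF-κB match was found in 10 of 23 promoters of NF-κB targets (43.5%), beside 12.9% and 10.8%. A p53 decamer was found in 4 of 30 promoters of p53 targets (13.3%), beside 5.23% and 6.54%.

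The G2/M genes, which drive mitosis, fell in all 3 lines, with 34 of 36 members down in RAMOS, 34 in NALM6 and 36 in 697. The background shares of falling genes were 28%, 34.9% and 35.8%. The difference split the list, with 21 members above 0, 9 below and 6 not called. Over all tested genes 29% were above and 32% below, and the count below was under the latter share. The median difference was 0.36, or 0.23 with upper-quartile scaling. PLK1, the mitotic kinase gene, fell further in RAMOS, from 234, 246 and 240 CPM to 8.86, 7.87 and 8.26 CPM. In NALM6 it fell from 164, 179 and 173 CPM to 12.9, 12.2 and 12.3 CPM, and in 697 from 126, 129 and 124 CPM to 16.2 and 16.4 CPM. RAMOS thus had the highest controls and the lowest treated libraries, and the difference was −1.46 ± 0.0921 (edgeR adjusted p = 3.67e-20). KIF20A, a kinesin of cytokinesis, PIF1, a helicase, and CDC20, the activator of the anaphase-promoting complex, also fell further in RAMOS, with differences of −1.84 ± 0.0973, −2.50 ± 0.182 and −1.10 ± 0.078.

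CDK1, the mitotic kinase gene, was nearly held in RAMOS, at 295, 279 and 295 CPM before and 242, 251 and 249 CPM after. NALM6 dropped from between 153 and 157 CPM to between 53.5 and 61.7 CPM, and in 697 from between 158 and 173 CPM to 64.2 and 74.3 CPM. Its difference was 1.12 ± 0.0676, close to that of CCNA2, the cyclin A2 gene, at 1.33 ± 0.0678. WEE1, which encodes the kinase that inhibits CDK1, was the 1 member that rose in RAMOS, from 265, 259 and 275 CPM to 430, 420 and 432 CPM. It did not pass in NALM6, at a log2 effect of 0.09, and fell in 697 by 0.98.

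NF-κB targets rose in every line, and their folds were smaller in RAMOS. Of 28 tested members, 24 rose in RAMOS, 25 in NALM6 and 26 in 697, beside 28.3%, 39.7% and 38.1% of all tested genes. The difference was above 0 for 3, below for 19 and not called for 6. Over all tested genes 29% were above and 32% below. The median difference was −1.59, or −1.38 with the 10 members that had a group of at most 3 reads held at that floor. Levels after treatment did not follow the folds in every member. NFKB2, a subunit of the factor, went from 103, 113 and 108 CPM to 1030, 945 and 1026 CPM in RAMOS. It went from 23.2, 23.3 and 19.5 CPM to 579, 549 and 567 CPM in NALM6, and from 18.9, 20.7 and 23.9 CPM to 579 and 600 CPM in 697. RAMOS was higher before and after, and the difference in fold was −1.53 ± 0.0731 (edgeR adjusted p = 2.50e-24).

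ICAM1, an adhesion gene, had the same form, with RAMOS controls between 116 and 120 CPM and treated libraries between 892 and 950 CPM. NALM6 went from between 20.2 and 23.3 CPM to between 494 and 499 CPM, and 697 from between 2.82 and 3.42 CPM to 395 and 435 CPM, a difference of −2.82 ± 0.076. TNFAIP3, a feedback inhibitor, was lower in RAMOS on both sides, at 26.4 to 30.6 CPM before and 146 to 160 CPM after. NALM6 went from between 95.1 and 102 CPM to between 1673 and 1714 CPM, and 697 from between 67.7 and 74 CPM to 1080 and 1114 CPM, a difference of −1.64 ± 0.0699. NFKBIA, the inhibitor that NF-κB itself induces, differed by only −0.62 ± 0.0656. The members above 0 were CD83, an activation marker gene, at 1.06 ± 0.0721, IRF1, a transcription factor gene, at 1.17 ± 0.0788, and NFKBIE, a further inhibitor gene, at 0.75 ± 0.095. BIRC3, an apoptosis inhibitor gene, had 1 read in the controls of each pre-B line. Its count ratio was 1656 in NALM6 (95% counting interval 297 to 65449) and 412 in 697 (73.3 to 16325).

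Immediate-early genes, transcription factor and phosphatase genes that respond within minutes to signals, rose in 26 of 28 members in NALM6 and 24 in 697, against 17 up and 5 down in RAMOS. Over all tested genes 39.7% rose in NALM6 and 38.1% in 697, and 28.3% rose and 28% fell in RAMOS. The difference was above 0 for 2, below for 18 and not called for 8, beside 29% above and 32% below among all tested genes. The median difference was −1.40. That median was −2.73 among the 21 members that averaged 2 or more in log2 CPM. The average takes in the treated pre-B libraries, so members high only there could pass. The shift of the median is therefore no added support. EGR1 rose in RAMOS from 1.45, 1.66 and 1.46 CPM to 3.32, 3.19 and 3.35 CPM. In NALM6 it went from 0.964, 0.964 and 0.79 CPM to 841, 849 and 833 CPM, and in 697 from 2.06, 3.22 and 3.09 CPM to 521 and 521 CPM. Controls were alike in level, whereas treated RAMOS libraries lay far below treated pre-B libraries, with a difference of −7.60 ± 0.267 (edgeR adjusted p = 5.20e-31). FOS stayed between 0.223 and 0.362 CPM in all RAMOS libraries and rose to 112 to 117 CPM in NALM6 and to 141 and 147 CPM in 697. JUN and ATF3 rose in RAMOS as well, by 2.58 and 3.58 on the log2 scale, against 7.19 and 8.07 in NALM6 and 6.27 and 6.86 in 697. DUSP1, a kinase phosphatase gene, and FOSL2, an AP-1 subunit gene, were the 2 members above 0, and FOSL2 was not called against NALM6 alone.

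The integrated stress response genes, which ATF4 and DDIT3 (CHOP) drive, rose in 22 of 25 members in RAMOS, 18 in NALM6 and 18 in 697. The shares of rising genes over all tested genes were 28.3%, 39.7% and 38.1%. The difference was above 0 for 11 and below for 10, beside 29% and 32% among all tested genes. The median of 0.10 turned to −0.03 with upper-quartile scaling. DDIT3 rose in NALM6 from between 14.6 and 15.4 CPM to between 203 and 222 CPM, and in 697 from between 17.1 and 17.8 CPM to 158 and 169 CPM. In RAMOS it went from 35.3, 38.8 and 41.2 CPM to 30.3, 36.1 and 29.6 CPM, where the groups overlapped, and the difference was −3.81 ± 0.0903. PPP1R15A, the phosphatase subunit that ends the response, and DDIT4, an inhibitor of mTORC1, differed by −2.40 ± 0.0725 and −2.33 ± 0.0905. MTHFD2, a mitochondrial folate enzyme gene, and SLC7A5, an amino acid transporter gene, lay above 0, at 1.12 and 1.07, whereas ASNS, the asparagine synthetase gene, and SLC7A11, the cystine transporter gene, lay below, at −0.23 and −0.61. VLDLR, a lipoprotein receptor gene, was the member furthest above, at 2.60 ± 0.12.

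**Figure D4:**
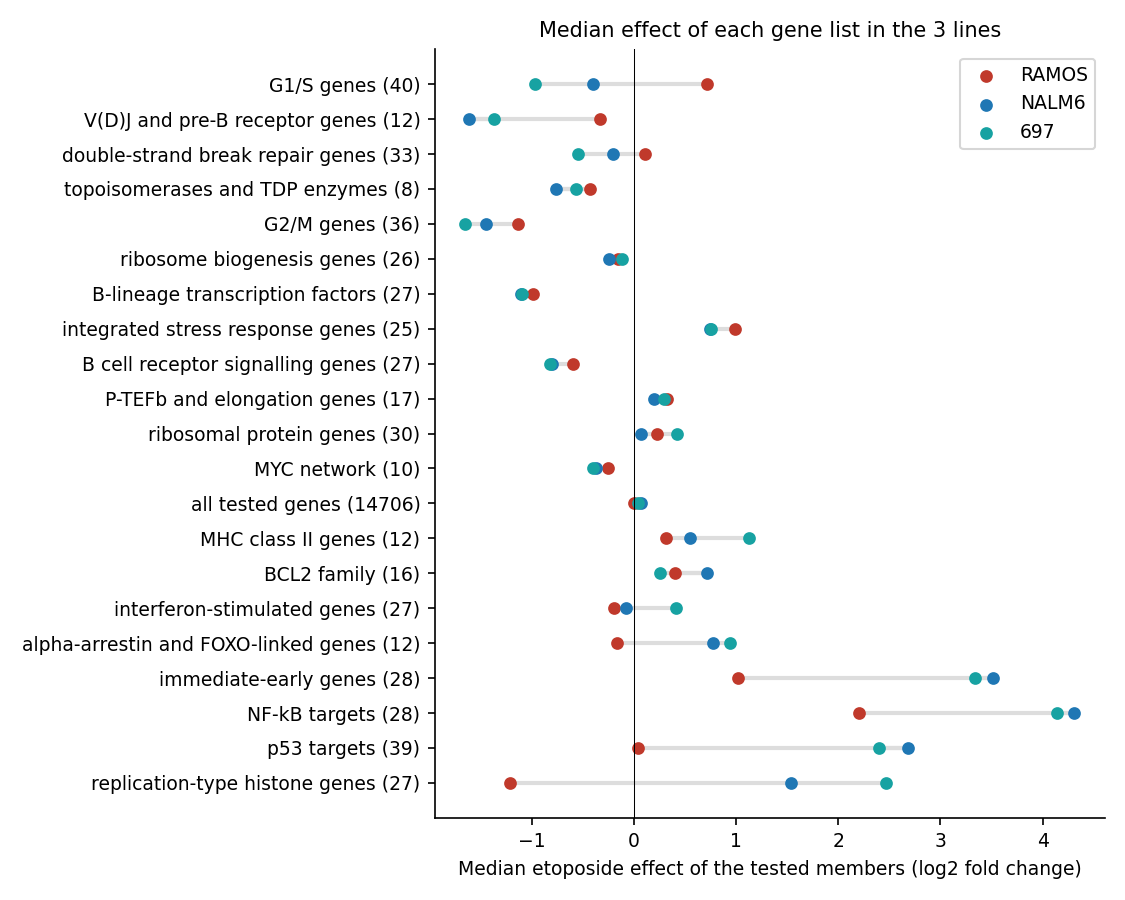
Median log2 etoposide effect (horizontal axis) of each gene list in RAMOS (red), NALM6 (blue) and 697 (teal), with the number of tested members in brackets and lists ordered by their median difference; all values are fitted ones, those of genes with few reads included. The lines part most at the top, for G1/S genes (0.71 in RAMOS, −0.40 in NALM6 and −0.97 in 697), and at the bottom, for p53 targets, NF-κB targets, immediate-early genes and the scarcely read histone genes.

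Among transcription factors of the B lineage, 13 of 27 tested members were above 0 and 10 below, beside 29% and 32% among all tested genes. The median of 0.14 was 0.02 with upper-quartile scaling and 0.25 without RAMOS control replicate 2. MYB, a factor of B and T cell progenitors, was furthest above. It rose in RAMOS from 21.5, 27 and 24.9 CPM to 184, 185 and 188 CPM. Its NALM6 level fell from 367, 364 and 354 CPM to 136, 136 and 144 CPM, and in 697 from 556, 555 and 574 CPM to 50.7 and 54.6 CPM. After etoposide RAMOS, the lowest line before, was the highest, and the difference was 5.30 ± 0.0729 (edgeR adjusted p = 1.70e-49). EBF1 and PAX5, which set B cell identity, fell in all lines and less in RAMOS, with differences of 2.12 ± 0.112 and 1.03 ± 0.0887. EBF1 control levels were 21.5 to 27 CPM in RAMOS and 241 to 304 CPM in the pre-B lines. XBP1, a factor of plasma cells, rose in RAMOS by 0.70 and fell in NALM6 by 0.65 and in 697 by 1.09 on the log2 scale.

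On the other side, POU2AF1, a coactivator of immunoglobulin genes, fell in RAMOS from 1006, 1031 and 1060 CPM to 195, 196 and 191 CPM. In NALM6 it went from 101, 108 and 90.7 CPM to 92, 86.7 and 93 CPM, with overlap, and in 697 from 134, 127 and 134 CPM to 64.7 and 65.2 CPM. The difference was −1.83 ± 0.0644 (edgeR adjusted p = 5.88e-31). Its partner gene POU2F2 (OCT2) went from 343 to 169 CPM in the RAMOS group means, from 5.76 to 126 CPM in NALM6 and from 6.27 to 99.3 CPM in 697, a difference of −5.20 ± 0.114. ID3, an inhibitor of E proteins, fell in RAMOS from between 322 and 343 CPM to between 130 and 135 CPM and rose in NALM6 and 697, by 0.86 and 0.38 on the log2 scale. BACH2, a repressor of plasma cell fate, fell in every line, by 4.09 in RAMOS, 2.14 in NALM6 and 3.58 in 697.

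The signalling genes of the B cell receptor fell in most members of all lines, 21 of 27 in RAMOS, 20 in NALM6 and 20 in 697, beside 28%, 34.9% and 35.8% of all tested genes. The difference was above 0 for 11 and below for 9, beside 29% and 32% among all tested genes, with a median of 0.03 that turned to −0.10 with upper-quartile scaling. PLCG2, the phospholipase of the pathway, fell in RAMOS from 489, 510 and 519 CPM to 91.6, 94.5 and 94 CPM, whereas it went from between 83.1 and 88.5 CPM to between 48.8 and 55.8 CPM in NALM6 and from between 37.7 and 39.9 CPM to 32.9 and 33.1 CPM in 697. Its difference was −1.97 ± 0.0687. BLNK, the adaptor that brings PLCG2 to the receptor, fell less in RAMOS, from between 132 and 150 CPM to between 68 and 73.2 CPM, with a difference of 1.70 ± 0.0714. CD72, a co-receptor gene, fell by 1.62 in RAMOS, rose by 0.82 in NALM6 and did not pass in 697. VAV2, an exchange factor gene, differed by −3.39 ± 0.181, through NALM6 alone. It went there from between 0 and 0.151 CPM to between 9.97 and 11.6 CPM, while it fell in RAMOS and 697 by 0.23 and 0.29 on the log2 scale.

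The V(D)J recombination and pre-B receptor list was called above 0 for 6 of 12 members and below for 1, with a median of 0.86. Without RAMOS control replicate 2 the counts were 11 and 1 and the median was 1.45. Over all tested genes 29% were above and 32% below. Falls were called for 11 members in NALM6, 12 in 697 and 5 in RAMOS, beside 34.9%, 35.8% and 28% of all tested genes. Several of these genes were scarcely read in RAMOS. DNTT, among the RAMOS falls, held 3.66 CPM in control replicate 2 and 0.362 and 0.365 CPM in the other controls. After etoposide it held 0.174 to 0.446 CPM, so the groups overlapped. The count of RAMOS falls is given with that control replicate only. RAG2, a RAG recombinase subunit, stood between 0.743 and 1.71 CPM in all RAMOS libraries. It fell in NALM6 from 194, 196 and 198 CPM to 38.1, 41.9 and 40.1 CPM and in 697 from 148, 144 and 144 CPM to 14.1 and 12.5 CPM, a difference of 2.96 ± 0.256. RAG1, the other subunit, fell in NALM6 from between 590 and 641 CPM to between 36.8 and 48.3 CPM and in 697 from between 235 and 241 CPM to 6.79 and 8.89 CPM. RAMOS controls held 0.603, 5.89 and 0.822 CPM and treated RAMOS libraries 0.785, 0.817 and 0.478 CPM, so the groups overlapped. The RAG1 difference of 2.34 ± 1.10 was not called (edgeR adjusted p = 0.088), and without control replicate 2 it was 4.28 ± 0.425 (edgeR adjusted p = 4.26e-12). LIG4, the ligase that seals the breaks, rose in RAMOS by 0.47 and fell in NALM6 by 1.66 and in 697 by 0.50 on the log2 scale.

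In the BCL2 family, 5 of 16 members were above 0, 8 below and 3 not called. The count above is near the 29% over all tested genes, and the share below over all genes was 32%. BCL2L1, which encodes the survival protein BCL-XL, rose in RAMOS from 247, 261 and 246 CPM to 734, 758 and 744 CPM. It stood in NALM6 at 66.2, 81.5 and 74.4 CPM before and 78.7, 75.6 and 77.5 CPM after, with overlap, and fell in 697 from 81.7, 81.9 and 78.8 CPM to 65.7 and 62.9 CPM. The difference was 1.71 ± 0.0662 (edgeR adjusted p = 4.70e-29). BCL2, its relative, fell in NALM6 from between 97.9 and 108 CPM to between 41 and 42.4 CPM, and in 697 from between 149 and 152 CPM to 28.9 and 31.4 CPM. In RAMOS BCL2 did not exceed 1.22 CPM. The death-promoting members BIK, BBC3, BOK, HRK, BAX, PMAIP1 and BAK1 were all below 0, with BIK at −4.38 ± 0.165. BIK fell in RAMOS from between 66.9 and 72.2 CPM to between 22.4 and 24.3 CPM and rose in NALM6 from between 6.19 and 6.93 CPM to between 12.9 and 14.5 CPM. The death-promoting members BID, BMF and BCL2L11 were above 0, at 1.54, 1.08 and 0.46, though BMF rose more in NALM6 than in RAMOS and fell in 697.

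Double-strand break repair genes were above 0 in 20 of 33 members and below in 9, with a median of 0.62, beside 29% above and 32% below among all tested genes. The count below is thus near or under that share. XRCC5, the Ku80 gene of end joining, stood in RAMOS at 486, 506 and 517 CPM before and 513, 546 and 510 CPM after, with overlap. It fell in NALM6 from 999, 1022 and 1026 CPM to 437, 443 and 433 CPM, and in 697 from 1407, 1472 and 1431 CPM to 625 and 651 CPM, a difference of 1.25 ± 0.0571. BRCA1 and RBBP8 (CtIP), which act in end resection and homologous recombination, rose in RAMOS and fell in both pre-B lines, with differences of 1.24 ± 0.0661 and 1.33 ± 0.0653. RAD52, FANCA and POLQ, the gene of polymerase theta, were the members furthest below 0, at −1.31, −0.97 and −0.94.

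The enzymes that etoposide acts on fell in every line. TOP2A went from 757, 736 and 763 CPM to 315, 319 and 304 CPM in RAMOS, with log2 effects of −1.27 in RAMOS, −1.54 in NALM6 and −1.93 in 697, and a difference of 0.47 ± 0.0593. TOP2B differed more. It fell in RAMOS from 329, 325 and 337 CPM to 232, 211 and 232 CPM. It fell in NALM6 from 1171, 1205 and 1233 CPM to 365, 402 and 359 CPM and in 697 from 2835, 2860 and 2713 CPM to 543 and 532 CPM. The pre-B controls lay far above the RAMOS controls, and the difference was 1.48 ± 0.0617 (edgeR adjusted p = 1.05e-27). TDP2, which removes trapped topoisomerase II from DNA ends, did not pass in RAMOS, with a log2 effect of 0.11, and fell in both pre-B lines, a difference of 0.75 ± 0.0725. TOP1 was below 0, at −0.59 ± 0.0613.

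MYC, the gene of a growth-promoting transcription factor that is translocated in Burkitt lymphoma, had like control levels in the 3 lines, between 776 and 862 CPM. It fell to 310, 267 and 299 CPM in RAMOS, to 272, 251 and 268 CPM in NALM6 and to 61.7 and 74.8 CPM in 697. RAMOS overlapped with NALM6 after treatment, and 697 lay below both. The difference of 1.16 ± 0.0702 (edgeR adjusted p = 3.50e-19) rested on 697, with log2 effects of −1.46 in RAMOS, −1.61 in NALM6 and −3.63 in 697. Against NALM6 alone it was not called (edgeR adjusted p = 0.0994). MXD1, a MYC antagonist gene, rose in all lines and less in RAMOS, with a difference of −2.01 ± 0.131. The P-TEFb list, on transcript elongation, was above 0 in 6 of 17 members and below in 7, both near the 29% and 32% over all tested genes. Its kinase gene CDK9 was at 1.45 ± 0.0764, up in RAMOS and down in both pre-B lines.

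**Figure D5:**
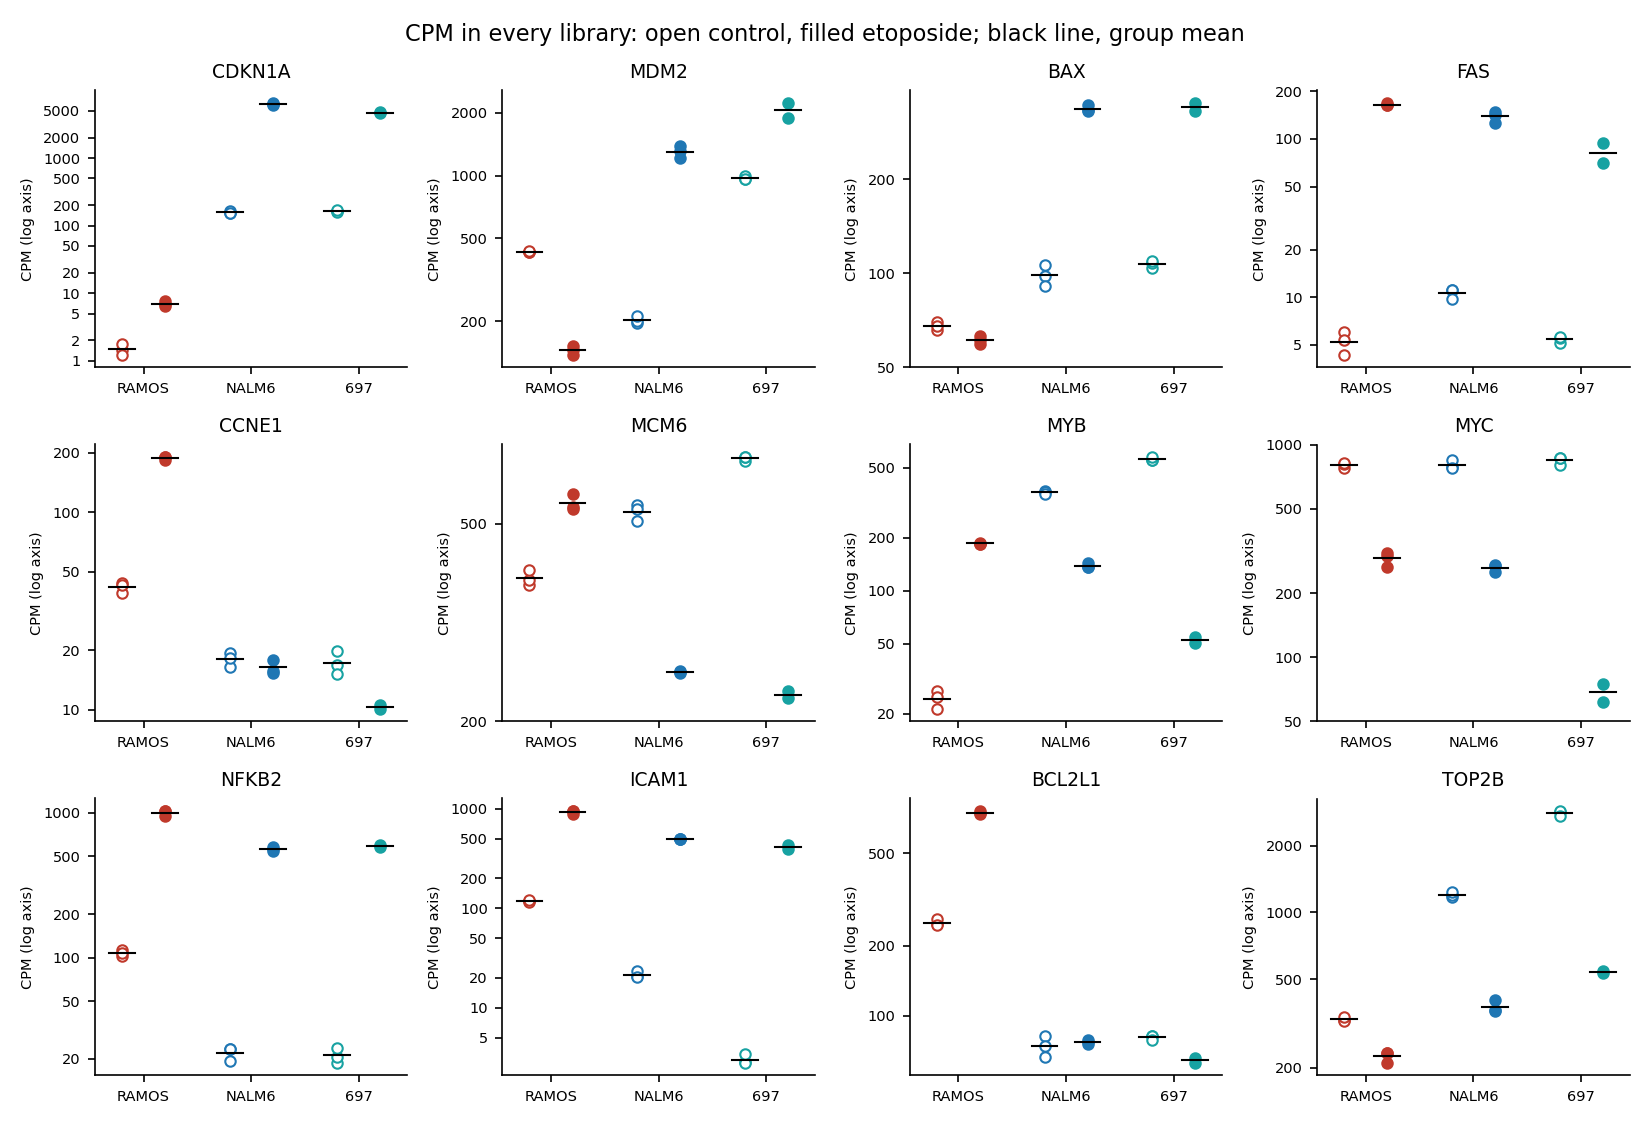
CPM (log axis) of 12 genes in each of the 17 libraries, open circles for controls, filled circles for etoposide and black lines for group means. MDM2, MCM6 and MYB go opposite ways in RAMOS and the pre-B lines, while NFKB2 and ICAM1 rise in all 3 lines and end highest in RAMOS.

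Interferon-stimulated genes were below 0 in 14 of 27 members and above in 4, beside 32% and 29% among all tested genes. The median difference was −0.71, and the median log2 effect was −0.19 in RAMOS, −0.07 in NALM6 and 0.41 in 697. Against NALM6 alone 10 members were below and 4 above, beside 31.1% and 28% of all tested genes. The count below was thus near its share there. Against 697 alone 17 were below and 3 above, beside 29.2% and 28.1%. Between the pre-B lines 14 members were called lower in NALM6 than in 697 and 1 higher, beside 18.1% and 20.3%. STAT2, a factor of the interferon response, went from 123 to 74.3 CPM in the RAMOS group means, from 47.9 to 61.5 CPM in NALM6 and from 25 to 39.8 CPM in 697, a difference of −1.25 ± 0.0777. Class II antigen presentation genes were called for 3 of 12, under the 61% among all tested genes, and 5 of the 12 had a group of at most 3 reads. CIITA, the master regulator of class II genes, rose in all lines at a difference of −1.06 ± 0.0681. Among genes of the alpha-arrestins and of FOXO control, 6 of 12 were below 0 and none above. Over all tested genes 32% were below and 29% above. PIK3IP1, a PI3 kinase inhibitor gene, fell in RAMOS from between 44.6 and 45.3 CPM to between 20.5 and 21.5 CPM. It rose in NALM6 from between 0.526 and 1.71 CPM to between 11.2 and 15.2 CPM, and in 697 from between 2.36 and 3.35 CPM to 41.8 and 43 CPM, a difference of −4.81 ± 0.156.

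Ribosome biogenesis genes were split, with 13 of 26 above and 10 below, beside 29% and 32% among all tested genes. NCL, the nucleolin gene, was above, at 0.77 ± 0.0647. Ribosomal protein genes, whose reads are uncertain because of near-identical copies, were above in 11 of 30 and below in 8, near those shares. With upper-quartile scaling the counts were 8 and 18. Replication-type histone genes were below 0 in 23 of 27, beside 32% among all tested genes. The median was −3.34, or −3.23 with the 8 histone genes that had a group of at most 3 reads held at that floor. Their copies are near-identical and most were at low counts, and of the 3 members that reached 1 CPM in each line 2 were called. Over all tested genes that averaged under 2 in log2 CPM the median difference was −1.20. HIST1H1C, a linker histone gene, went in RAMOS from 2.77, 3.45 and 3.74 CPM to 1.27, 2.6 and 1.57 CPM and in 697 from 26.9, 24.9 and 21.3 CPM to 60.4 and 60.5 CPM.

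Genes named for the size of their difference alone included many that were hardly read in RAMOS. Below 0 the genes named for size were MMP2, EGR3, CCL4, ITGAM, CYP4F2, PVRL4, CHRNA6, CD69, GRIN2C and NFASC, not all of them hardly read. ITGAM, an integrin gene of myeloid cells, stood between 0.137 and 0.668 CPM in RAMOS and reached 72.7 and 80.6 CPM in treated 697 libraries from 2 reads in all controls. Summed myeloid markers, which include ITGAM, went from 7.22 to 86.1 CPM in 697. In the 697 group means FCGR1A went from 0.038 to 1.48 CPM, CD14 from 0.161 to 1.23 CPM and CTSG from 0.92 to 2.11 CPM. CSF1R went down there from 5.79 to 3.52 CPM and LYZ from 0.131 to 0.116 CPM, and S100A8, S100A9 and ELANE were at 0. The part of other cells in this was not tested. CD69, an activation marker gene, was at 6.71 to 8.32 CPM in RAMOS controls and 7.33 to 8.67 CPM in treated RAMOS libraries, with overlap. It went in NALM6 from between 0.482 and 0.658 CPM to between 164 and 191 CPM, and in 697 from no reads to 2.18 and 2.26 CPM, at least 40.6-fold.

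CCL4 has near-identical copies, so its reads are uncertain. Without RAMOS control replicate 2 it was no longer called, at −6.94 with an SE of 12186. So large an SE means that the fit could not judge the difference. The same held for CYP4F2 without RAMOS control replicate 3, at −6.80 with an SE of 10916. Above 0 the genes named for size included PLS3, PHLDB2, PRR5L, MYB, SYT1, SYNPO2, TMOD2, LMO2 and HAP1. PLS3, an actin bundling gene, had no reads in RAMOS controls and 7 in etoposide libraries, while 697 held 526 to 553 CPM before and 273 and 282 CPM after. LMO2, a factor of blood progenitors and germinal centre B cells, was read in all lines. It rose in RAMOS from 5.43, 3.71 and 4.47 CPM to 29, 32.2 and 32.1 CPM. It fell in NALM6 from 18.1, 17.8 and 16 CPM to 5.25, 6.88 and 5.63 CPM and in 697 from 12.3, 15.2 and 12.9 CPM to 5.46 and 5.26 CPM. The difference was 4.26 ± 0.163 (edgeR adjusted p = 2.12e-29).

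Among the 624 genes that fell in RAMOS and rose in both pre-B lines, HSPG2, the gene of the matrix protein perlecan, was well read in every line. It fell in RAMOS from 75.7, 81.4 and 74.4 CPM to 8.9, 7.65 and 7.92 CPM. It rose in NALM6 from 2.02, 2.08 and 1.91 CPM to 46.2, 45.6 and 49.7 CPM and in 697 from 45, 49.4 and 47.2 CPM to 300 and 315 CPM. Its difference was −6.85 ± 0.101 (edgeR adjusted p = 3.41e-48). ANK1, an ankyrin gene, fell in RAMOS from between 3.93 and 6.5 CPM to between 1.61 and 2.38 CPM. It rose in NALM6 from between 0.658 and 1.02 CPM to between 8.85 and 12.1 CPM, and in 697 from between 1.01 and 1.74 CPM to 64.2 and 68.1 CPM. The RAMOS falls of NKD2, NRP2 and HHIP rested on 9 or 10 reads over all controls, most of them in replicate 2. Without it the calls of NRP2 (edgeR adjusted p = 0.0531) and HHIP (edgeR adjusted p = 0.145) were lost.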

How the data were processed

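RNA-seq of 17 libraries was used. The deposited values are raw read counts, whole numbers for each gene symbol. Per the submitters' processing notes the tools were HISAT, HTSeq and DESeq2 and the build hg19, with versions not given in the sources used. The authors' own comparison tables and the libraries of the other lines were left out of the main test. The pools were read from the file names.

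Counts were tested in R 4.3.3 with edgeR 4.0.16, in 1 fit over the 6 groups of line and treatment. filterByExpr removed low genes (minimum count 10), TMM gave the scaling factors, and the test was edgeR's robust quasi-likelihood F test, which is two-sided. A gene was called at a Benjamini-Hochberg adjusted p under 0.05, taken over all tested genes. The standard error (SE) is the absolute log2 value divided by the root of F. Genes with a group of at most 3 reads are given as a bound against 3 reads over the group, or as a count ratio with a 95% interval, which cover counting error only. The fit was tested on simulated data.

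Named genes were the 10 largest differences per direction among genes that averaged 2 or more in log2 CPM and were called the same way against each pre-B line, and the 8 largest of each opposite class that averaged 3 or more, with antisense, pseudogene and unnamed loci passed over. Up to 4 members of each list with the smallest adjusted p, and 9 genes always reported, were added, and other list members were chosen after their values were seen. The lists and the comparison were chosen with earlier results of these data known. Whether replicates were separate cultures is not stated, so the p-values reflect spread among these libraries alone, and that spread may be technical. Promoters came from RefSeq on GRCh38.p14, matched through gene symbols, and no hg19 coordinate is used. DESeq2 1.42.0, other scalings and filters, all 34 libraries, a replicate block and the omission of each library were alternatives, and 3 more were added after seeing the data. A few named items are not reported here.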

Additional observations from a re-analysis of the deposited data

Results flagged for a closer look

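The responses of NALM6 and 697 differed from each other for 5650 genes by the test of the difference itself, so the pre-B mean joins unlike responses. Single genes were flagged because RAMOS and both pre-B lines were called in opposite directions and the difference was called. Those higher in RAMOS were MYB at 5.30, LMO2 at 4.26, WNT16 at 3.48, PHF13 at 3.33, CCNE2 at 3.29 and UHRF1 at 3.10 on the log2 scale. Those lower were SULF2 at −7.85, CSF1 at −7.31, HSPG2 at −6.85, TMEM229B at −6.15 and ANK1 at −6.06. WNT16 stayed at or below 0.341 CPM in all RAMOS libraries, and SULF2 and CSF1 at or below 1.31 and 2.01 CPM.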

How the results depend on the processing

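The counts of differing genes stayed within 1.5 times of the reported ones under every alternative. RAMOS against the pre-B mean gave 9012 genes with DESeq2's size factors in edgeR, 9005 with upper-quartile scaling, 9112 with DESeq2 and 8369 with a minimum count of 50. With any 1 library left out it gave 8505 to 9000. The ranges were 8230 to 8832 against NALM6, 7910 to 8482 against 697, 5010 to 5643 between the pre-B lines, 750 to 874 for genes up in RAMOS and down in both, and 549 to 616 for the reverse. Same-numbered control and etoposide libraries did not deviate together (correlations −0.12 to 0.012). With so few libraries per group this cannot show whether the numbers pair the samples. A fit with a replicate block gave 8653 genes. Restricted to genes at 1 CPM or more in each line, a choice made after seeing the data, 7871 were called. Among named genes none turned direction. RAG1 was also called with DESeq2 (adjusted p = 0.00379), with all 34 libraries (adjusted p = 0.0224) and with the block (adjusted p = 0.0268). Pool and treatment coincide in the pre-B lines, which no setting can change, and 697 etoposide had 2 libraries.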

Other observations

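Genes were also grouped by the length of their span in RefSeq, which was known for 95.9% of tested genes. This is a description with no test. Among genes over 300 kb that averaged 2 or more in log2 CPM (332 genes), the median log2 effect was −0.79 in RAMOS, −0.40 in NALM6 and −0.67 in 697, and the median difference −0.31. Among those of 30 to 100 kb (3533 genes) the medians were −0.02, −0.19 and −0.21, and the median difference 0.13. Summed T cell markers went from 1.59 to 5.69 CPM in NALM6 and from 27.1 to 12.6 CPM in 697. The etoposide libraries of both lines shared a pool with libraries of the T cell line JURKAT, whose part in these values was not tested. CD3D went from 0 to 10 reads over the group in NALM6 and from 0 to 9 in 697. CD3E went from 1 to 16 reads in NALM6 and from 0 to 15 in 697. LAT rose in NALM6 from 1.16 to 4.57 CPM and fell in 697 from 24.3 to 10.7 CPM, and CD247 fell in both lines. TRAT1 was at 0 in all groups of both lines.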
